A study of Homo sapiens with 12 samples.

Results

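The genes described here are 10 feedback regulators of mitogen-activated protein kinase (MAPK) signalling, namely DUSP1, DUSP4, DUSP5, DUSP6, DUSP8, DUSP10, SPRY2, SPRY4, SPRED1 and SPRED2. They were chosen by name, as the rows of the count table whose Ensembl identifiers carry these symbols, and all 10 were found among 63568 identifiers and passed the filter on low counts that left 25249 genes. RNA was sequenced from MDA-MB-231 cells, a human triple negative breast cancer line, which were labelled wild type, carried a green fluorescent protein in their nuclei and grew inside droplets of Matrigel, a basement membrane gel. There were 2 libraries in each of 6 conditions, which were untreated cells of day 2, untreated cells of day 4, and cells of day 4 given 0.0005, 0.005, 0.05 or 0.5 μM Paclitaxel on day 2. Paclitaxel binds and stabilises microtubules. The day of treatment is that of the sample labels, while the study's methods name a later day in the culture procedure that was repeated for RNA, so the length of treatment is uncertain. All 12 libraries came from this cell line. The libraries of a condition were biological replicates according to the study's methods. In tests that keep the 6 conditions apart, p-values measure the spread between such replicates of this line. In the fit of all treated against all untreated libraries, differences between doses and between days also enter the spread. In the fit of a slope on dose, departures from a straight line also enter it. Every treated library was of day 4, so the day 2 libraries differed from them by day as well as by drug.

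MAPK pathways carry signals from receptors through cascades of kinases to ERK, JNK and p38, and they switch on genes that then restrain the same cascades. The dual specificity phosphatases (DUSPs) remove phosphate from both the threonine and the tyrosine that activate a MAPK. DUSP1, DUSP4 and DUSP5 work in the nucleus, DUSP6 works on ERK in the cytoplasm, and DUSP8 and DUSP10 act mainly on JNK and p38. Sprouty proteins (SPRY2, SPRY4) and the related SPRED proteins (SPRED1, SPRED2) act higher up, between receptor tyrosine kinases, RAS and RAF. DUSP6, SPRY2, SPRY4 and several of the other members are known targets of ERK signalling.

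The promoters of DUSP1 and DUSP8 are shown first because these are the members whose counts differed between treated and untreated cells, in opposite directions, and because both hold the palindrome TGACGTCA, the full cAMP response element to which proteins of the CREB and ATF families bind. They are given 5′ to 3′ on the gene's strand, from RefSeq on GRCh38.p14, as the 250 bases before the start site, at chr5:172771196-172771445 (minus strand) for DUSP1 and chr11:1572272-1572521 (minus strand) for DUSP8. Capitals mark TGACGTCA.
DUSP1: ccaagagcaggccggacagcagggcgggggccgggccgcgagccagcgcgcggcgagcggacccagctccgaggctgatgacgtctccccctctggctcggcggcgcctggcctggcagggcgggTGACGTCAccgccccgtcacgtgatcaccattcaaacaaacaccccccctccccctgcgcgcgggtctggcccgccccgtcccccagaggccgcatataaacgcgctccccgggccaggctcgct
DUSP8: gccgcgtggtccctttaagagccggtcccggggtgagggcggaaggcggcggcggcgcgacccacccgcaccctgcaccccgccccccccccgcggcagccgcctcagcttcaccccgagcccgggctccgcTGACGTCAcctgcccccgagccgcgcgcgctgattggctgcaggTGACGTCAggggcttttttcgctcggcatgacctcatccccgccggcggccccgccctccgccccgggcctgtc
DUSP1 held the element once, with its first base at -125 from the start site, and DUSP8 held it at -118 and -74.

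RefSeq promoters were at hand for 8 of the 10 members, as 12 windows of 300 bases (250 before and 50 after each start site), and no entry was found for DUSP4 and DUSP5. Both strands were searched. TGACGTCA was in 649 of 35116 such windows of all genes (1.85%), and 21 windows (0.0598%) held it at least 2 times. None of the other 6 members with a window held it. The shorter TGACG, which is part of TGACGTCA, was in 24.6% of all windows, and matched 4 times in DUSP1, 4 times in DUSP8 and in windows of DUSP10, SPRY2, SPRY4 and SPRED2. DUSP1 also held CACGTG at -108, which is in 7.26% of windows, and TATAAA at -30, which is in 11.5%. CCAAT, present in 34.6% of windows, matched 4 times in a window of DUSP10. Neither the CArG box, the site of serum response factor, nor CCGGAAG, an ETS family site, matched in a member's window. Matches of letters are descriptions, and binding was not measured.

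Totals ran from 38380629 to 79169121 counts per library, with a median of 65977095.5, and the members had between 57 counts (DUSP8, untreated day 2 replicate 2) and 58620 counts (DUSP6, 0.0005 μM replicate 1). The untreated day 2 pair stood apart from the other pairs. The standard deviation of the log2 difference between its replicates over genes was 0.576, against 0.0966 to 0.24 within the other 5 pairs, and results are therefore also given without a day 2 library where that mattered. Markers of the line were present, with VIM between 797 and 1366 CPM (counts scaled to a common library size) and AXL between 240 and 844, while among the markers listed as low ESR1 stayed at or under 0.46 CPM, CDH1 at or under 0.201 and PGR at or under 0.0867, and EPCAM lay between 4.37 and 6.77 CPM. For treated against untreated libraries, 2 of the 5 markers of the line were called lower, AXL (-0.88 ± 0.16, log2) and EGFR (-0.46 ± 0.15), and none of the 3 low markers tested was called. The fibroblast markers DCN and COL1A2 did not exceed 0.153 CPM, and the leukocyte marker PTPRC did not exceed 0.281 CPM. The 4 fibroblast markers summed to between 3.7 and 9.36 CPM, nearly all of it PDGFRB, and neither of the 2 tested was called. PTPRC was called higher in treated libraries, as 1 of 2 leukocyte and endothelial markers tested, and the part of these markers in the results on the 10 genes was not tested. In bulk RNA, fewer cells with a transcript and less of it per cell cannot be told apart.

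Levels between genes were compared per length, as CPM per kilobase of exon (RPKM), averaged over the 12 libraries. DUSP1 (177 RPKM) and DUSP6 (161 RPKM) were the most abundant, followed by DUSP5 (62.0) and DUSP4 (38.4). The Sprouty genes lay below them at 27.1 RPKM for SPRY2 and 25.9 for SPRY4, and SPRED2 (12.8) and SPRED1 (10.3) were lower again. DUSP10 and DUSP8, the members that act mainly on JNK and p38, were the least abundant, at 5.46 and 1.0 RPKM. Across libraries DUSP8 varied most, by 5.13-fold between its lowest and highest CPM, and SPRED1 least, by 1.36-fold.

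**Figure D1:**
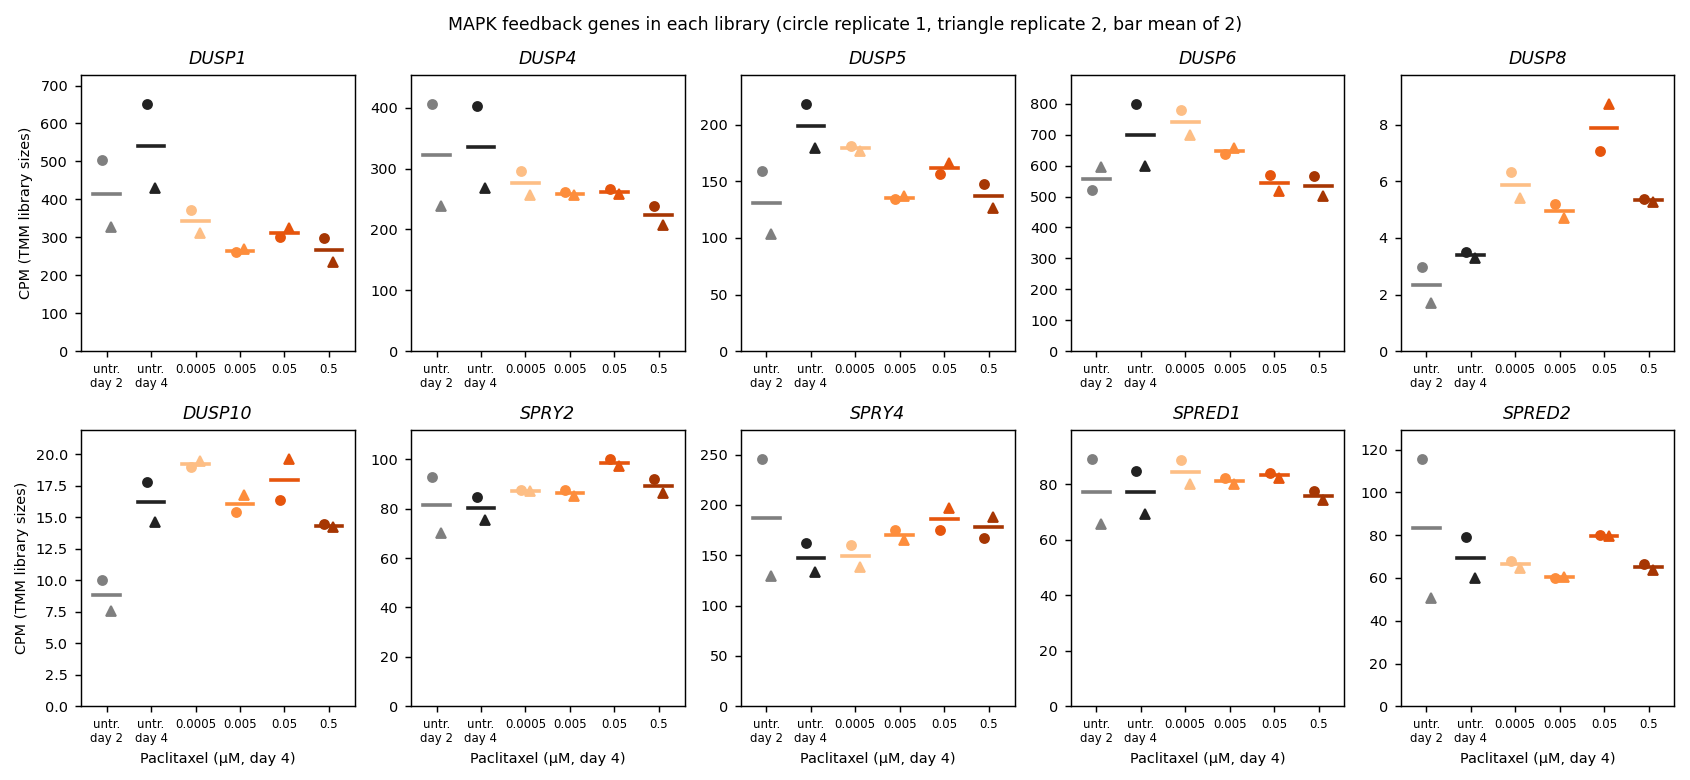
CPM (linear axes from 0) of the 10 genes in each of the 12 libraries, with a panel per gene, the 6 conditions along the horizontal axis, a circle for replicate 1, a triangle for replicate 2 and a bar for the mean of 2. DUSP1 lay between 234 and 373 CPM in the 8 treated libraries and at 431 and 651 CPM in untreated day 4, while DUSP8 lay between 4.70 and 8.73 CPM in treated and between 1.70 and 3.49 CPM in untreated libraries.

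The question was whether feedback regulators differed between Paclitaxel-treated and untreated cells. With all 8 treated libraries set against all 4 untreated libraries, 1 member was lower (DUSP1) and 1 was higher (DUSP8), and the other 8 did not pass the test (edgeR's quasi-likelihood test, two-sided, Benjamini-Hochberg adjustment over 25249 genes, called at an adjusted p under 0.05). In this comparison 24.4% of all genes were called, 11.3% lower and 13.1% higher. The median log2 fold change of the 10 members was -0.00057 and that of all genes tested was -0.0019. Among the 12245 genes of at least 5 CPM, to which all members but DUSP8 belong, 2504 were called lower and 574 higher, with a median of -0.14.

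DUSP1 (ENSG00000120129, chr5:172195099-172198198 on GRCh37, minus strand), an early response gene whose product inactivates p38, JNK and ERK in the nucleus, was at 503 and 326 CPM in untreated day 2 and at 651 and 431 CPM in untreated day 4. It was at 373 and 311 CPM at 0.0005 μM, 260 and 269 CPM at 0.005 μM, 302 and 323 CPM at 0.05 μM, and 297 and 234 CPM at 0.5 μM. Every treated library was below both untreated libraries of day 4, as for 11.3% of all genes, and the lower day 2 library overlapped with the 0.0005 μM pair. DUSP1 was 1.61-fold lower in treated than in untreated libraries (log2 fold change -0.69 ± 0.15 SE, adjusted p = 0.00382, n = 8 and 4). Against untreated day 4 alone, the log2 fold change was -0.66 ± 0.24 at 0.0005 μM (adjusted p = 0.176), -1.03 ± 0.24 at 0.005 μM (adjusted p = 0.0365), -0.79 ± 0.24 at 0.05 μM (adjusted p = 0.0597) and -1.03 ± 0.24 at 0.5 μM (adjusted p = 0.0274). The test was thus passed at 0.005 and 0.5 μM, and the values did not fall steadily with dose. The slope of DUSP1 per 10-fold dose among treated libraries was -0.09 ± 0.05 (adjusted p = 0.426).

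The size of the DUSP1 difference rested in part on untreated day 4 replicate 1, which had the highest DUSP1 of all libraries. Without this library the log2 fold change was -0.70 at 0.005 μM (adjusted p = 0.346) and -0.70 at 0.5 μM (adjusted p = 0.282), and both calls were lost. It was then -0.33 at 0.0005 μM and -0.46 at 0.05 μM. With each of the 12 libraries left out in turn, the call at 0.005 μM held in 4 cases, which were those without an untreated day 2 library, untreated day 4 replicate 2 or 0.5 μM replicate 2. The call at 0.5 μM held in 7 cases and was lost without untreated day 4 replicate 1 or any library of 0.005 or 0.5 μM. The comparison of all treated with all untreated libraries kept its call without it (-0.50 ± 0.15, adjusted p = 0.0252). The study reported MAPK signalling genes as lower with rising Paclitaxel dose in these same samples, so the direction of DUSP1 is not independent evidence.

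Genes that respond early to stress and handling were also examined, since DUSP1 is such a gene. Of 17 early response and heat shock genes tested, 1, 7, 8 and 9 were called lower at the 4 doses in rising order, against 0, 0, 3 and 1 called higher. Among all genes 0.479%, 0.776%, 3.23% and 1.96% were called lower at these doses, and 1.87%, 2.5%, 5.09% and 4.36% higher. For all treated against all untreated libraries 3 were lower, 3 higher and 11 not called, where 11.3% of all genes were lower and 13.1% higher. With the 6 conditions kept apart, the mean of the 4 doses against both untreated days gave 8 lower and 4 higher (12.2% and 14.1% of all genes). Against untreated day 4 alone it gave 9 lower and 2 higher (4.1% and 5.64% of all genes). At 0.5 μM the lower genes included the heat shock genes HSPA6 (-2.40 ± 0.21, log2) and HSPA1B (-1.90 ± 0.24) and the transcription factor genes FOSB (-3.39 ± 0.37) and ATF3 (-1.62 ± 0.18), all called, while EGR1 was called higher (1.34 ± 0.25). The summed level of these 17 genes was 2390 and 1659 CPM in untreated day 2, 3152 and 2567 CPM in untreated day 4 and between 1675 and 2741 CPM in treated libraries. Untreated day 4 replicate 1 was again the highest, and the lowest was untreated day 2 replicate 2. The part of this list in the DUSP1 difference was not tested.

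DUSP8 (ENSG00000184545, chr11:1575281-1593501 on GRCh37, minus strand), a phosphatase of JNK and p38 known best from brain and heart, was at 2.98 and 1.70 CPM in untreated day 2 and at 3.49 and 3.27 CPM in untreated day 4. It was at 6.33 and 5.41 CPM at 0.0005 μM, 5.21 and 4.70 CPM at 0.005 μM, 7.06 and 8.73 CPM at 0.05 μM, and 5.39 and 5.26 CPM at 0.5 μM. All 8 treated libraries were above all 4 untreated ones, which no other member showed. Such separation upward was seen for 7.39% of all genes and downward for 5.77%. DUSP8 was 2.08-fold higher in treated libraries (log2 fold change 1.06 ± 0.19 SE, adjusted p = 0.000988, n = 8 and 4), on raw counts of 57 to 213 in untreated and 286 to 669 in treated libraries.

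At single doses DUSP8 passed the test at 0.05 μM, where its log2 fold change against untreated day 4 was 1.22 ± 0.22 (adjusted p = 0.00764). It was 0.80 ± 0.22 at 0.0005 μM (adjusted p = 0.0927), 0.55 ± 0.22 at 0.005 μM (adjusted p = 0.207) and 0.65 ± 0.23 at 0.5 μM (adjusted p = 0.108). The highest level was thus at 0.05 μM, and the slope per 10-fold dose was 0.03 ± 0.08 (adjusted p = 0.861). The call at 0.05 μM was lost without either untreated day 4 library and without replicate 2 of 0.05 μM, where the log2 fold change ran no lower than 1.04 and the adjusted p reached 0.0909. Against untreated day 4 only, the mean of the 4 doses was higher by 0.81 ± 0.19 (adjusted p = 0.0203).

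At single doses the members called numbered 0 at 0.0005 μM, 1 at 0.005 μM (DUSP1), 1 at 0.05 μM (DUSP8) and 1 at 0.5 μM (DUSP1). The background was 2.34%, 3.28%, 8.32% and 6.32% of all genes called at these doses in the same order. At 0.0005 μM 2 members had an unadjusted p under 0.05 (DUSP1 and DUSP8), where 17% of all genes did, and DESeq2 called 1 of them, DUSP8. All 4 dose comparisons used the same 2 untreated libraries, so their values are not independent of each other. The spread in the model came in part from the day 2 pair. Without replicate 1 of untreated day 2 the members called were 2, 3, 2 and 4 at the 4 doses in rising order, with DUSP5 and DUSP8 added at 0.005 μM and DUSP4, DUSP5 and DUSP8 at 0.5 μM. Without replicate 2 of that pair they were 2, 3, 3 and 4. Calls among all 25249 genes rose with them, from 592, 827, 2100 and 1596 to 2504, 3280, 4773 and 4924 without replicate 1, and to 2570, 3161, 4798 and 5033 without replicate 2.

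**Figure D2:**
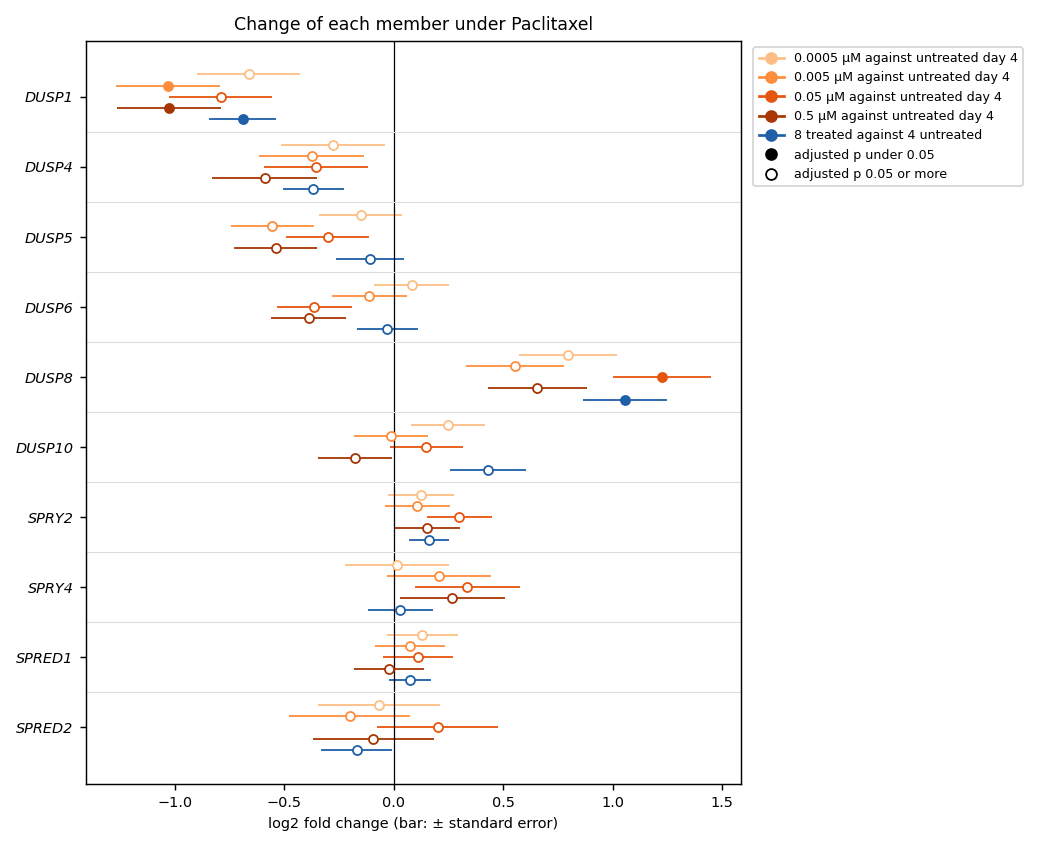
Log2 fold change (horizontal axis, bars ± SE) of each of the 10 genes at the 4 doses against untreated day 4, in orange shades, and for 8 treated against 4 untreated libraries, in blue. Filled points have an adjusted p under 0.05 and are DUSP1 at -1.03, -1.03 and -0.69 and DUSP8 at 1.22 and 1.06, while the Sprouty and SPRED points lie between -0.20 and 0.34.

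The other nuclear phosphatases lay on the same side as DUSP1 without passing the test. DUSP4 (chr8:29190581-29208201 on GRCh37, the build of all positions that follow), which acts on ERK, JNK and p38, was at 406 and 239 CPM in untreated day 2 and at 403 and 268 CPM in untreated day 4, against a range of 207 to 296 CPM over the 8 treated libraries. Its untreated replicates differed more than its treated ones, and the groups overlapped. The log2 fold change of DUSP4 was -0.37 ± 0.14 for treated against untreated libraries (adjusted p = 0.0611) and -0.59 ± 0.24 at 0.5 μM (adjusted p = 0.167). The former passed the test in 4 of 21 alternatives. These were DESeq2 (adjusted p = 0.0399), a replicate block, and leaving out replicate 2 of either untreated day (adjusted p = 0.0105 for day 2). Its adjusted p reached 0.246 among the others, and it came to -0.25 without untreated day 2 replicate 1. The value at 0.5 μM came to -0.26 without untreated day 4 replicate 1.

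DUSP5 (chr10:112257665-112271291), a nuclear phosphatase specific for ERK, was at 159 and 103 CPM in untreated day 2, 218 and 180 CPM in untreated day 4, and 182 and 177 CPM at 0.0005 μM. It was at 134 and 137 CPM at 0.005 μM, 157 and 166 CPM at 0.05 μM, and 147 and 126 CPM at 0.5 μM. The 3 higher doses lay below both untreated libraries of day 4, as 29.3%, 26.9% and 27.3% of all genes did at these doses, but not below those of day 2. The log2 fold change of DUSP5 against untreated day 4 was -0.55 ± 0.19 at 0.005 μM (adjusted p = 0.138) and -0.54 ± 0.19 at 0.5 μM (adjusted p = 0.114), and against both untreated days it was -0.11 ± 0.15 (adjusted p = 0.645).

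DUSP6 (chr12:89741012-89746278), the cytoplasmic phosphatase of ERK and a common readout of ERK activity, had the highest CPM of the members. It was at 520 and 597 CPM in untreated day 2 and at 799 and 599 CPM in untreated day 4. Among treated libraries it was at 779 and 700.5 CPM at 0.0005 μM, 637 and 656 CPM at 0.005 μM, 570 and 517 CPM at 0.05 μM, and 566 and 502 CPM at 0.5 μM. The lowest dose lay above the 3 others and the 0.005 μM pair above the 2 highest doses, which overlapped with each other and with untreated day 2. Such separation of 2 pairs was common. At 0.5 against 0.0005 μM it was seen downward for 25.9% of all genes and for 7 members. The slope of DUSP6 was -0.17 ± 0.05 per 10-fold dose (adjusted p = 0.0612, n = 8), the steepest of the members, and it did not pass the test. No member passed it for the slope, where 3.06% of all genes did, and 2 members had an unadjusted p under 0.05 (DUSP6 and DUSP10), where 18.3% of all genes did. DESeq2 called 1 member, DUSP6 (adjusted p = 0.000581). The DUSP6 slope passed in 5 of 16 alternatives, with an adjusted p of up to 0.363. For treated against untreated libraries the log2 fold change of DUSP6 was -0.03 ± 0.14 (adjusted p = 0.898). A long noncoding RNA on the opposite strand overlaps exons of DUSP6, and without a stated strand setting its reads cannot be told apart from those of DUSP6.

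DUSP10 (chr1:221874766-221915431), a phosphatase of p38 and JNK, differed mainly between the untreated days. It was at 10.04 and 7.58 CPM in untreated day 2, and at 17.8 and 14.7 CPM in untreated day 4. The treated libraries ranged from 14.2 to 19.6 CPM, all above day 2 and on both sides of day 4. Day 4 was 1.83-fold above day 2 (log2 fold change 0.87 ± 0.17, adjusted p = 0.0649, n = 2 and 2), which did not pass the test. DUSP10 was higher by 0.43 ± 0.17 in treated than in all untreated libraries (adjusted p = 0.0822). With each library left out in turn, this value was lowest without untreated day 2 replicate 2 (0.28) and highest without untreated day 4 replicate 1 (0.65). Its adjusted p then ranged from 0.0154 to 0.238. Against untreated day 4 alone, the mean of the 4 doses was higher by 0.05 ± 0.13 (adjusted p = 0.846). With the days kept apart in the model of 6 conditions, the mean of the doses against the mean of both untreated days was 0.49 ± 0.11 (adjusted p = 0.00577).

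No member was called between untreated day 4 and day 2, where 0.325% of all genes were called. DUSP10 and DUSP5 had an unadjusted p under 0.05, as had 10% of all genes, and DESeq2 called 1 member, DUSP10 (adjusted p = 0.00142). DUSP5 was higher on day 4 by 0.60 ± 0.19 (adjusted p = 0.337), and by 0.95 without replicate 1 and 0.36 without replicate 2 of untreated day 2. The 6 DUSP members were all above 0 in this comparison, from 0.06 for DUSP4 to 0.87 for DUSP10. The 4 Sprouty and SPRED members were all below 0, from -0.34 for SPRY4 to -0.005 for SPRED1. Of all genes 52.7% were below 0. The direction of the Sprouty and SPRED members rested on 1 library. In CPM each of these 4 was above both day 4 libraries in replicate 1 of untreated day 2, and below both in replicate 2. The early response and heat shock genes were above 0 in 17 of 17 cases, with a median of 0.63, 12 with an unadjusted p under 0.05 and 1 called, and their part in the DUSP values was not tested. Both day 2 libraries bore on this. Without replicate 1 the members called were DUSP1, DUSP5, DUSP8 and DUSP10, all higher on day 4, and without replicate 2 they were DUSP10, higher on day 4, and SPRY4 and SPRED2, both lower (-0.69 each). The genes called among all 25249 were then 2785 and 1896, against 82 with all libraries.

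As a share of the summed RPKM of the 6 DUSP genes, which includes each gene itself, DUSP1 made up 49.2% and 41.2% in untreated day 2 and 47.6% and 44.3% in untreated day 4. It made up between 33.2% and 39.7% in the 8 treated libraries, so the groups did not overlap, whereas in CPM they did. DUSP6 took 26.6% to 39.3% in untreated and 33.1% to 42.6% in treated libraries, which overlapped. DUSP10 took 0.682% to 1.07% in untreated and 1.31% to 1.72% in treated libraries, without overlap. DUSP8 took 0.0872% to 0.137% in untreated and 0.237% to 0.436% in treated libraries, also without overlap. When the CPM of every gene was divided by the same DUSP sum, 10.4% of all genes were separated upward and 0.23% downward. DUSP1 is a large part of this divisor, so these percentages do not measure how rare its own separation was. The shares are tied to each other, so that a lower DUSP1 by itself raises the shares of the other genes, and in CPM DUSP10 overlapped with untreated day 4. The sum itself was 331 to 507 RPKM in treated and 393 to 679 RPKM in untreated libraries.

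**Figure D3:**
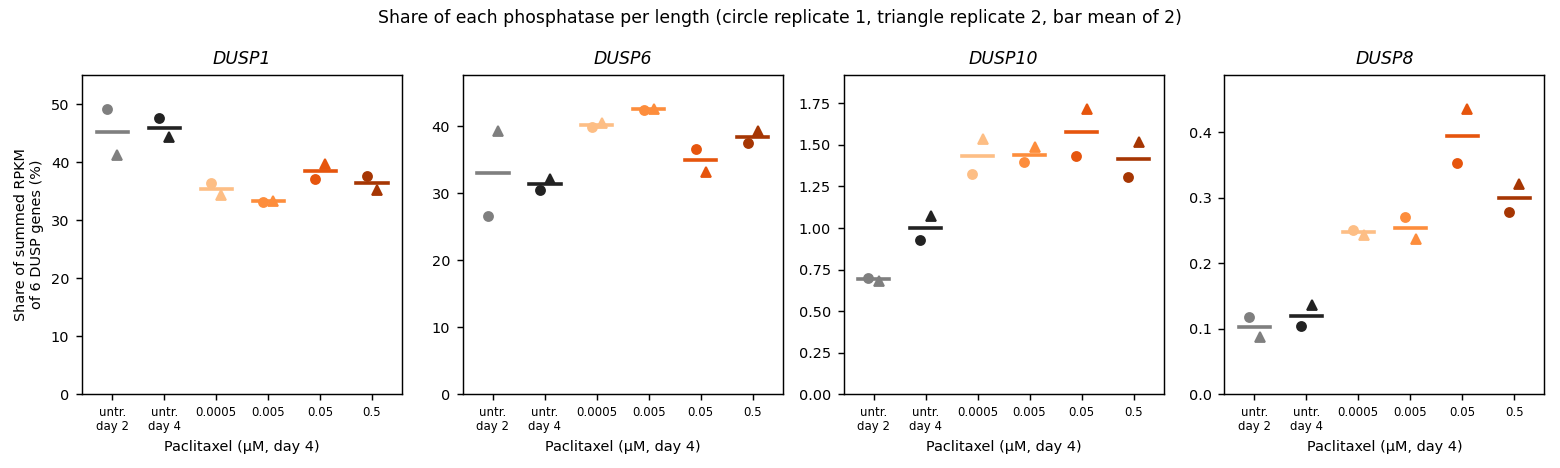
Share (%, linear axes from 0) of DUSP1, DUSP6, DUSP10 and DUSP8 in the summed RPKM of the 6 DUSP genes, by condition, with a circle for replicate 1, a triangle for replicate 2 and a bar for the mean of 2. The 8 treated libraries lie at 33.2% to 39.7% for DUSP1, below the untreated ones, and at 1.31% to 1.72% for DUSP10 and 0.237% to 0.436% for DUSP8, above them.

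The Sprouty and SPRED genes did not pass the test in any of the 7 comparisons. SPRY2 (chr13:80910111-80915261), an inhibitor of signalling below receptor tyrosine kinases, was at 92.9 and 70.0 CPM in untreated day 2 and 84.8 and 75.4 CPM in untreated day 4. It was at 87.6 and 87.0 CPM at 0.0005 μM, 87.4 and 85.3 CPM at 0.005 μM, 99.9 and 97.1 CPM at 0.05 μM, and 92.0 and 86.3 CPM at 0.5 μM. All 8 treated libraries were above both untreated libraries of day 4, as for 12.1% of all genes, but not above the higher library of day 2. The log2 fold change of SPRY2 was 0.16 ± 0.09 for treated against untreated libraries (adjusted p = 0.222) and 0.30 ± 0.15 at 0.05 μM (adjusted p = 0.254).

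SPRY4 (chr5:141689992-141706020), a relative of SPRY2, was at 245 and 129 CPM in untreated day 2 and at 162 and 133 CPM in untreated day 4, and ranged from 138 to 197 CPM in treated libraries. Its highest and its lowest library were both of untreated day 2. The log2 fold change of SPRY4 was 0.03 ± 0.15 for treated against untreated libraries (adjusted p = 0.907), and its largest value at a dose was 0.34 ± 0.24 at 0.05 μM (adjusted p = 0.445).

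SPRED1 (chr15:38545037-38649450), which with neurofibromin restrains RAS, was at 89.1 and 65.7 CPM in untreated day 2 and at 84.8 and 69.5 CPM in untreated day 4, and between 74.3 and 88.7 CPM in treated libraries, all of them within the untreated range. Its log2 fold change was 0.07 ± 0.10 (adjusted p = 0.622). SPRED2 (chr2:65537985-65659771) was at 115 and 50.8 CPM in untreated day 2 and at 79.0 and 60.0 CPM in untreated day 4. Its treated libraries ranged from 60.2 to 80.0 CPM and its log2 fold change was -0.17 ± 0.16 (adjusted p = 0.477). A p that misses the threshold does not show that these levels were equal.

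Ordered by mean CPM, DUSP1 was lowest at 0.005 μM (264 CPM) and highest in untreated day 4 (541 CPM), and neighbours in the order did not overlap only between 0.5 and 0.05 μM. DUSP8 ran from untreated day 2 (2.34 CPM) through untreated day 4 (3.38), 0.005 μM (4.96), 0.5 μM (5.32) and 0.0005 μM (5.87) to 0.05 μM (7.90), and none of these neighbouring pairs of libraries overlapped. In single comparisons of 2 with 2 libraries such separation was common. At 0.005 μM against untreated day 4, 32.9% of all genes were separated upward and 29.3% downward. For untreated day 4 against day 2 these were 15.9% and 15.3%. The share of all genes without overlap at every step was not counted. For SPRED1 the means spanned 76.0 CPM at 0.5 μM to 84.4 CPM at 0.0005 μM, and 4 of its 5 neighbouring steps overlapped.

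The other genes of the pathway, listed by name, are read against the 24.4% of all genes called for treated against untreated libraries. Among the 12245 genes of at least 5 CPM, 2504 were called lower and 574 higher, with a median of -0.14. Of 7 other dual specificity phosphatases, 5 were tested, and for treated against untreated libraries DUSP3, a small phosphatase of ERK and JNK, was called lower (-0.35 ± 0.10, log2, adjusted p = 0.0200), with the median of the list at 0.0034. DUSP16, a JNK phosphatase, was called for the slope (-0.19 ± 0.03 per 10-fold dose, adjusted p = 0.00659). Of the 3 other Sprouty and SPRED genes, SPRY1 was called lower in treated libraries (-0.50 ± 0.10, adjusted p = 0.00216), which its relatives SPRY2 and SPRY4 were not, though no test compared them. SPRY1 was not called against untreated day 4 alone, either in the mean of the 4 doses (-0.37 ± 0.12, adjusted p = 0.0730) or at a single dose. Of 12 other brakes on receptor and RAS signalling, 3 were lower and 1 higher, with a median of -0.25, and 0 were called in the mean of the 4 doses against untreated day 4 alone or at any single dose. Lower were RASA1, a RAS GTPase activating protein (-0.40 ± 0.08), PEBP1, an inhibitor of RAF (-0.35 ± 0.09), and IL17RD, a Sprouty partner also known as SEF (-0.36 ± 0.12), and higher was the ubiquitin ligase gene CBLB (0.33 ± 0.11).

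The kinases on which these genes act were lower in part. For treated against untreated libraries the 10 MAP kinase genes had a median of -0.21 (log2), and genes of at least 5 CPM -0.14. Of the 10 kinase genes, 4 were called lower and 1 higher. In the mean of the 4 doses against untreated day 4 alone 1 of them was called, lower, where 9.74% of all genes were called, and at the single doses 0, 0, 1 and 0 were. Among the lower ones were MAPK9 (JNK2, -0.48 ± 0.09, adjusted p = 0.000935), MAPK8 (JNK1, -0.26 ± 0.08) and MAPK13 (p38 delta, -0.26 ± 0.09), and MAPK10 (JNK3) was higher (1.53 ± 0.33), on 2 to 31 counts a library. Their summed level was 531 to 644 CPM in untreated and 452 to 499 CPM in treated libraries. Of 11 ERK output genes, 1 was lower, CCND1 for cyclin D1 (-0.58 ± 0.15), and 2 were higher, EGR1 (1.41 ± 0.26) and IER3 (0.60 ± 0.17), with a median of -0.22. In the mean of the 4 doses against untreated day 4 alone EGR1 was called higher (1.27 ± 0.21) and FOS lower (-0.56 ± 0.12), while CCND1 (-0.45 ± 0.20, adjusted p = 0.187) and IER3 (0.24 ± 0.12, adjusted p = 0.225) were not called.

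Across the 12 libraries, log2 CPM of DUSP1 and DUSP4 had the highest Pearson r of the 45 pairs of members, at 0.89, followed by DUSP8 with DUSP10 at 0.82 and SPRY4 with SPRED2 at 0.81. The lowest were DUSP6 with SPRY4 at -0.49 and DUSP1 with DUSP8 at -0.40. These are descriptions over libraries that share conditions. Over the 10 libraries without the untreated day 2 pair, a choice made after seeing the data, r was 0.90 for DUSP1 with DUSP4. It was 0.41 for DUSP8 with DUSP10, 0.42 for SPRY4 with SPRED2 and -0.51 for both of the lowest pairs. The highest pair was then DUSP1 with DUSP5, at 0.93, where r over the 12 libraries was 0.68. Among genes with a symbol and at least 5 CPM, DUSP1 was most like NAGLU (r = 0.98), OSBPL10 (0.98) and ITGB5 (0.97), and DUSP4 most like TBC1D9 (0.98). DUSP8 was most like ZNF697 (0.97), the neuronal tubulin gene TUBB3 (0.97) and OSGIN1 (0.97). DUSP10 was most like PNRC1 (0.97) and the inducible genes TNFAIP3 (0.96) and ZC3H12A (0.96), which restrain NF-κB signalling and degrade inflammatory mRNAs, and DUSP5 most like TRIM36 (0.95). DUSP6 was most like CA11 (0.97), SPRY2 like OTUD7B (0.97), SPRY4 like MBD6 (0.96) and SPRED1 like JAG1 (0.96). SPRED2 was most like CAMSAP1 (0.99) and ETV5 (0.99), the latter an ETS factor gene often read as a target of ERK. Without the day 2 pair r was 0.96 for SPRED2 with ETV5 and fell most for DUSP10 with ZC3H12A, to 0.71, while it was at least 0.88 for the other genes named here.

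**Figure D4:**
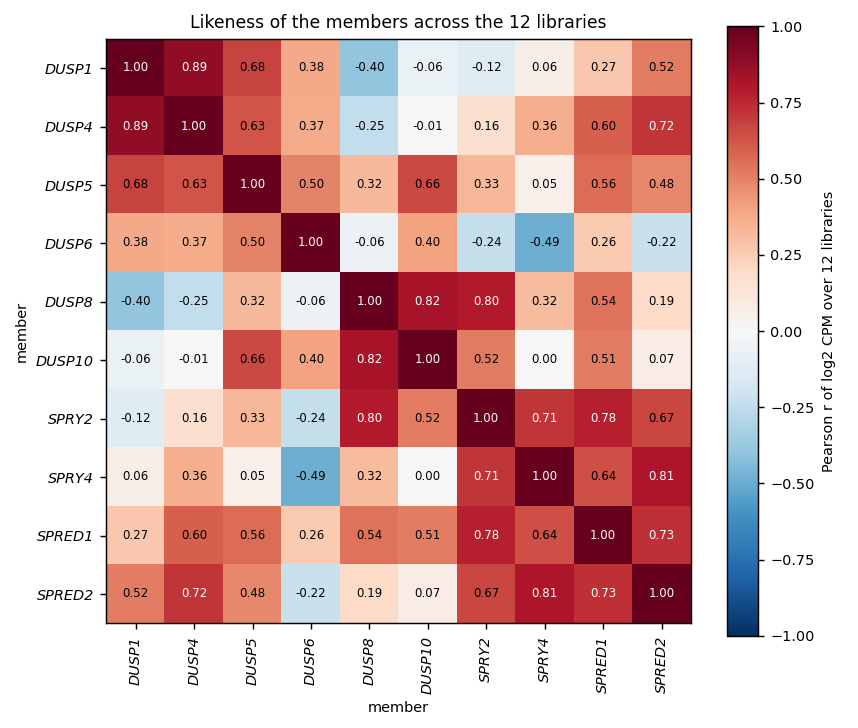
Pearson r of log2 CPM over the 12 libraries for each pair of the 10 genes, coloured from blue (-1) to red (1). DUSP1 and DUSP4 are at 0.89 and DUSP8 and DUSP10 at 0.82, while DUSP1 and DUSP8 are at -0.40. Without the untreated day 2 pair DUSP8 and DUSP10 were at 0.41.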

How the data were processed

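RNA of 12 libraries was measured by paired-end sequencing. The authors trimmed reads with Trimmomatic 0.39, mapped them with STAR 2.7.5 against the GRCh37 genome and counted unique reads over exons with Rsubread, whose strand setting is not given in the sources used here. The deposited values are raw counts per gene, with no scaling and no pooling of replicates. Each of the 12 single-library files was checked to equal its column in the whole table. Groups came from the sample titles.

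From these counts, in R 4.3.3, edgeR 4.0.16 gave TMM library sizes, a filter by expression, CPM, and robust quasi-likelihood tests, in a model of 6 conditions, in a fit of treated against untreated libraries, and for a slope on log10 dose. Each SE is the size of the log2 fold change over the square root of F. log2 CPM used a prior count of 2. RPKM used exon lengths of GENCODE on GRCh37, which need not be the authors' annotation. DESeq2 1.42.0, other scalings and filters, a replicate block and leaving out each library were the alternatives, and correlations were also taken without the day 2 pair. The procedures were tested on simulated data.

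Every member is named in every library, other listed genes where called (at most 5 a list by p), and the 3 genes most like each member by Pearson r, of which the first are given. Members and lists were chosen with earlier results of these data known. DUSP14 and PECAM1 were not analysed here. Some single genes that these rules name are left out of the text.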

Additional observations from a re-analysis of the deposited data

How the results depend on the processing

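DUSP1 and DUSP8 were called for treated against untreated libraries under each of 21 alternatives, with an adjusted p of 0.000263 to 0.0252 for DUSP1 and 1.91e-06 to 0.0203 for DUSP8. RLE scaling on genes of at least 5 CPM moved the median of all genes in that comparison to 0.11 and called 4 members, 1 lower and 3 higher (DUSP8, DUSP10 and SPRY2). It called 1547 genes lower of 5727, against 2860 of 6155.

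At 0.0005 μM they were 0, against 1 with DESeq2, 2 without a filter on low counts and 2 with the 4 libraries of the comparison alone. At 0.005 μM they were 1, against 2 with the 4 libraries alone. At 0.05 μM they were 1, against 2 with DESeq2, without a filter and with the 4 libraries alone. At 0.5 μM they were 1, against 3 without a filter and with the 4 libraries alone. For day 4 against day 2 they were 0, against 1 (DUSP10) with DESeq2, RLE on genes of at least 5 CPM and no filter. For the slope they were 0, against 1 (DUSP6) under the same 3 alternatives. DUSP1 passed in 12 of 20 alternatives at 0.005 μM and in 15 of 20 at 0.5 μM, and DUSP8 in 17 of 20 at 0.05 μM.

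Leaving out each library in turn gave 0 to 2 members at 0.0005 μM, 0 to 3 at 0.005 μM, 0 to 3 at 0.05 μM, 0 to 4 at 0.5 μM, 2 to 3 for treated against untreated, 0 to 2 for the slope and 0 to 4 for day 4 against day 2. The 0 at each dose came without untreated day 4 replicate 1, among others. Calls among all genes ranged likewise, from 141 to 2570, 84 to 3280, 322 to 4798 and 128 to 5033 at the 4 doses in rising order, 4105 to 6947 for treated against untreated, 124 to 1017 for the slope and 47 to 2785 for day 4 against day 2. A condition left with 1 library was assumed to vary like the others.

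Replicate numbers were not taken to pair the libraries, since that required every correlation of replicate differences between conditions to be over 0.1, and of 15, from -0.60 to 0.68, 8 were. With a replicate block the members called at 0.05 μM were 2 (DUSP1 added), DUSP4 passed for treated against untreated libraries (adjusted p = 0.0483), and genes called for the slope went from 773 to 420. The causes of these changes were not tested. Among all genes, calls at 0.0005 μM went from 592 to 1173 with DESeq2, 1480 without a filter and 2927 with the 4 libraries alone, at 0.005 μM from 827 to 1362, 1909 and 2973, and at 0.5 μM from 1596 to 2807 without a filter and 2930 with the 4 libraries alone. At 0.05 μM they went from 2100 to 3292 with the 4 libraries alone. For day 4 against day 2 they went from 82 to 271, 390 and 0, and for the slope to 1696 with DESeq2 and 1459 without a filter. DUSP8 had 57 to 213 counts in untreated libraries, the fewest of the members.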
